A study of Mus musculus with 4 samples.

Results

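The coronins are a family of actin regulators, and 7 of their genes were read here in cultured mouse cortical neurons after calmodulin was depleted or put back. The members were the probe sets whose annotation held exactly 1 gene symbol and that symbol was Coro1a, Coro1b, Coro1c, Coro2a, Coro2b, Coro6 or Coro7. This gave 7 of 35399 probe sets and 7 of 19938 genes, 1 probe set a gene. The family was chosen from the values of Coro6, which was known to lie far above control in the knockdown, so every value of Coro6 is given as a description and supports nothing. The other 6 genes came in by family membership.

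Coronins carry a beta-propeller of WD repeats that binds filamentous actin. Most also have a coiled coil through which they form oligomers. They sit at branched actin networks, where they restrain the Arp2/3 complex, the machine that nucleates new branches, and help cofilin take old filaments apart. Type I coronins (Coro1a, Coro1b, Coro1c and Coro6) are the classical Arp2/3 and actin binders, type II members (Coro2a and Coro2b) have more varied partners, and the type III member Coro7 works at the Golgi. In neurons, actin branching and turnover shape growth cones and dendritic spines.

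All cultures were cortical neurons from postnatal day 0 pups of a mixed SV129 and C57BL/6 strain, grown in serum- and B27-supplemented medium with Ara-C, which holds back dividing cells. The labels give Syt1 deficient and wild-type pups as sources, without tying an array to either. At 5 days in vitro they received lentivirus with shRNAs against calmodulin (the knockdown group, 2 samples), the same shRNAs plus a wild-type calmodulin that resists them (the rescue group, 2 samples), or control lentivirus, and total RNA was taken at 14 to 15 days. RNA was read on Affymetrix mouse Gene 1.0 ST arrays, and the authors deposited each test array as a ratio to the control array of its repeat. The 4 columns are called knockdown and rescue, repeat 1 and repeat 2, and both groups of a repeat share a control array. The labels do not state that the repeats were separate cultures, so the spread behind each p-value is that between these samples and may be technical. Ratios hold no level of expression, so the coronins cannot be ranked by abundance, and whether neuronal or glial markers were present could not be checked, only whether they moved.

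Targeted genes were checked first. On the log2 scale, Calm2, a calmodulin gene, had knockdown values of -1.08 and -1.72 and rescue values of -0.84 and -1.28. Calm3, another, had knockdown values of -1.32 and -2.40 and rescue values of -2.41 and -3.55. All of these lay below control. The sources used here do not say whether these probe sets read the resistant calmodulin. Across all genes the standard deviation of the log2 ratios ran from 0.232 to 0.349 over the 4 columns, widest in knockdown repeat 2.

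Of the 7 coronins, Coro6 was far above control in the knockdown and near control in the rescue. Coro1a lay below control in both knockdown columns and near it in the rescue, and Coro2a and Coro2b lay below control in all 4 columns. Coro1b and Coro1c lay between -0.30 and 0.10 in every column. Coro7 lay between -0.29 and 0.06 in 3 columns and at -0.45 in rescue repeat 1. Values are log2 ratios to control unless said otherwise, so 0 is equality with control. Means carry the standard error of limma, a linear model with a spread shared across genes, and a gene passed where its p, adjusted over all 19938 genes by Benjamini-Hochberg, was under 0.05. Another fit added the repeat as a block, and with it 1074 genes rather than 61 passed in the knockdown. Against control, the block takes out the difference between repeats that both groups share. Only through that difference do these ratios show the control's spread. A pass against control with the block alone is therefore a description and no further evidence of a change. Standard errors and intervals are from the fit without the block. In bulk RNA, fewer cells of a type and less RNA per cell cannot be told apart, and this touches every value below.

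**Figure D1:**
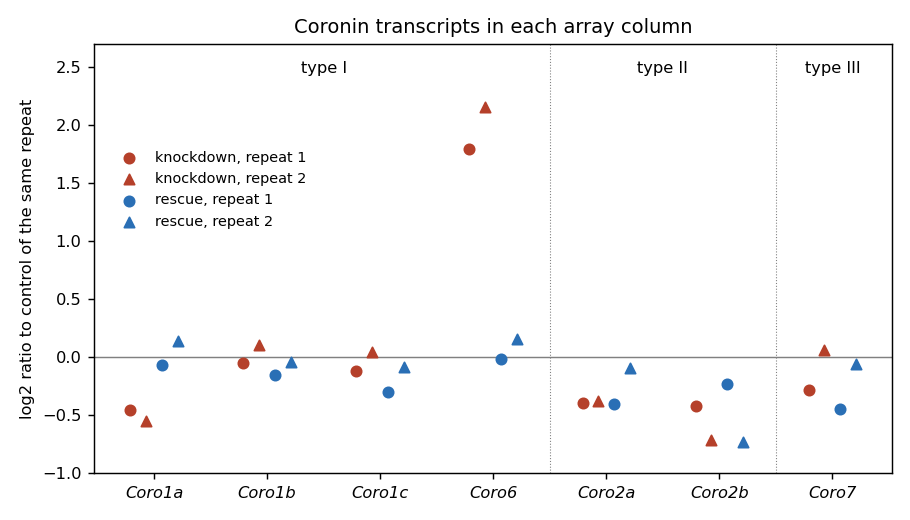
Log2 ratio to the control array of the same repeat (vertical axis) for each coronin gene (horizontal axis, grouped by type); red marks the knockdown, blue the rescue, circles repeat 1 and triangles repeat 2. The 2 knockdown points of Coro6 stand at 1.79 and 2.15, and every other point of the family lies between -0.73 and 0.15.

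Coro6, a type I coronin found mainly in brain and muscle that links acetylcholine receptors to actin at the neuromuscular junction, had deposited ratios of 3.46 and 4.45 in the knockdown, against 0.989 and 1.11 in the rescue. As log2 values these were 1.79 and 2.15 with the shRNAs alone, and -0.02 and 0.15 with the resistant calmodulin. Both knockdown columns were high, neither rescue column was more than 1.2-fold from control, and the groups did not overlap. Among the 19938 genes, Coro6 ranked 2 from the top in knockdown repeat 1 and 5 in knockdown repeat 2, and in the knockdown mean 0.01% of genes lay farther from control in either direction. The mean was 1.97 in the knockdown (SE 0.13, n = 2), a 3.93-fold ratio, and 0.07 in the rescue (SE 0.13, n = 2).

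Set within a repeat, where both columns share the control array, the knockdown stood 3.50-fold above the rescue in repeat 1 and 4.01-fold in repeat 2. The mean difference was 1.90 on the log2 scale (SE 0.19, 95% interval 1.47 to 2.34, n = 2 per group). Its SE and interval are from the fit without the block, which does not pair the columns. The probe set of Coro6 is annotated to 3 curated RefSeq transcripts, so the ratios do not separate its isoforms. Skeletal muscle is another place of high Coro6 expression. Its markers had medians of 0.13 and 0.16 in the knockdown, against 0.18 and -0.01 in the rescue. Of the 10 markers, 7 lay above control in both knockdown columns, beside 30.5% of all genes, and the highest single value there was 0.38. In limma 0 of 10 passed in any comparison, beside 0.306% of all genes in the knockdown, 0% in the rescue and 0.0702% between them. The part of these markers in the Coro6 values was not tested.

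Coro1a, the leukocyte-rich coronin that also acts in calcium signalling and in the neurotrophin signalling endosomes of neurons, was at -0.45 and -0.55 in the knockdown and at -0.07 and 0.14 in the rescue. Both knockdown columns were low and the groups did not overlap. Its knockdown mean of -0.50 (SE 0.12, 95% interval -0.78 to -0.22, n = 2) did not pass the threshold (limma adjusted p = 0.116). It did with the repeat as a block (limma adjusted p = 0.0388), a fit that leaves out the control's spread. The difference from the rescue was -0.39 in repeat 1 and -0.69 in repeat 2. Its mean of -0.54 (SE 0.17, 95% interval -0.93 to -0.14) did not pass in limma (adjusted p = 0.476; 0.197 with the block). The intervals are for a single gene and are not adjusted over all genes, so they can leave out 0 where the adjusted p misses the threshold.

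Coro1a is abundant in microglia, the resident macrophages of the brain, so microglia markers are given beside it. The 14 markers had medians of -0.40 and -0.01 in the 2 knockdown columns and -0.41 and -0.15 in the rescue columns, with single genes from -0.63 to 0.72 in the knockdown and from -0.92 to 0.36 in the rescue. Among them, Itgam, an integrin subunit, was at -0.63 and -0.12 in the knockdown, against -0.70 and -0.14 in the rescue. Csf1r, the receptor microglia need to survive, was at -0.61 and -0.03, and -0.64 and -0.20. Of the 14 markers, 6 lay below control in both knockdown columns, beside 31.1% of all genes. Above control in both were 0 of 14, beside 30.5% of all genes. The microglia median was low in repeat 1 of both groups, and the part of these markers in the Coro1a values was not tested.

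Coro2b, a type II coronin enriched in the nervous system, was at -0.42 and -0.72 in the knockdown, against -0.24 and -0.73 in the rescue. All 4 columns lay below control, the lower pair in repeat 2, and the groups overlapped. The knockdown mean was -0.57 (SE 0.15, n = 2, limma adjusted p = 0.141). It passed only with the repeat as a block (limma adjusted p = 0.0254), which leaves out the control's spread. With 1 knockdown column left, whose spread the fit takes from the rescue columns, the value was -0.72 without knockdown replicate 1 (limma adjusted p = 0.0355) and -0.42 without knockdown replicate 2 (limma adjusted p = 0.611), so it turns on which column is kept. The rescue mean was -0.49 (SE 0.15, adjusted p = 0.573; 0.115 with the block). Between knockdown and rescue the difference was -0.09, with a 95% interval from -0.58 to 0.41 (limma adjusted p = 1.00), and it was 0.02 after quantile normalization.

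Coro2a, the type II member known as a part of NCoR co-repressor complexes, was at -0.40 and -0.38 in the knockdown, against -0.40 and -0.10 in the rescue. The knockdown columns and rescue repeat 1 lay together, with rescue repeat 2 nearer to control, and the groups overlapped. Its knockdown mean was -0.39 (SE 0.13, limma adjusted p = 0.200), its rescue mean -0.25 (SE 0.13, adjusted p = 0.712), and the difference between them -0.14, with a 95% interval from -0.55 to 0.27.

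The remaining members passed in neither group. Coro1b, which works with Arp2/3 and the cofilin phosphatase Slingshot at the leading edge, had knockdown values of -0.05 and 0.10 and rescue values of -0.16 and -0.04. Coro1c, the broadly expressed type I coronin of cell migration, was at -0.12 and 0.05, and -0.30 and -0.08. Coro7, which has a pair of propellers and acts in Golgi transport, was at -0.29 and 0.06, and -0.45 and -0.06. Its value in rescue repeat 1 was as low as that of Coro1a in knockdown repeat 1. For each of these genes repeat 2 lay above repeat 1 in both groups, by 0.15 and 0.12 for Coro1b, 0.17 and 0.22 for Coro1c and 0.35 and 0.38 for Coro7, and both groups of a repeat share a control array.

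Taken within a repeat, these genes were slightly higher in the knockdown than in the rescue. The differences were 0.11 and 0.14 for Coro1b, 0.18 and 0.13 for Coro1c and 0.16 and 0.12 for Coro7. None passed the threshold (limma adjusted p = 1.00 for each; 0.906, 0.851 and 0.879 with the block). The 95% intervals of the mean differences are from the fit without the block, which does not pair the columns. They ran from -0.26 to 0.51 for Coro1b, from -0.25 to 0.56 for Coro1c and from -0.34 to 0.61 for Coro7.

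**Figure D2:**
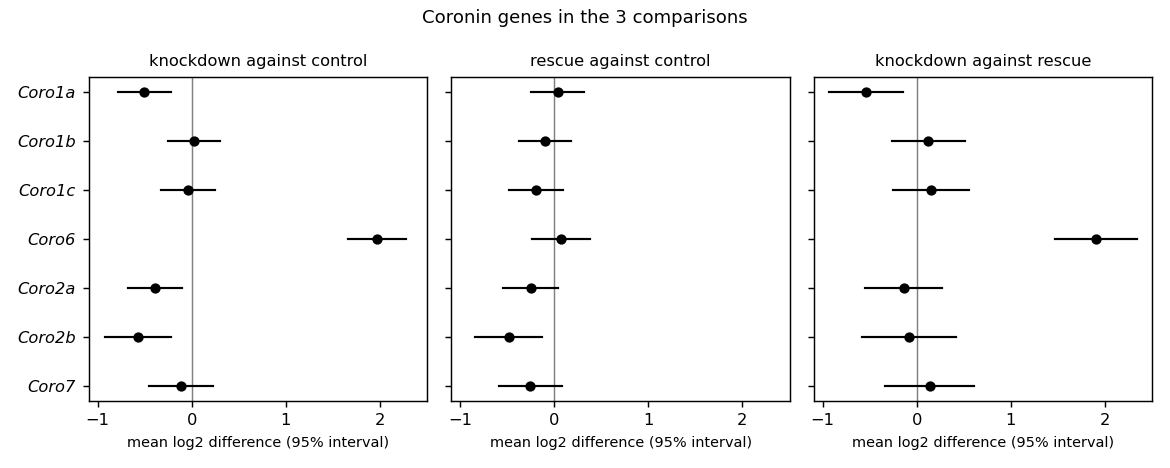
Mean log2 difference of each coronin gene (points) with its 95% interval from limma (lines, not adjusted over genes) in the 3 comparisons, on 1 shared horizontal axis. Coro6 lies at 1.97, 0.07 and 1.90, and is shown as the gene that chose the family; the intervals of Coro1b, Coro1c and Coro7 all include 0.

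Counted over the family, 1 of 7 coronins (Coro6, higher) passed the threshold in the knockdown against control, where 0.306% of all genes did (27 higher and 34 lower; 28 and 66 after quantile normalization). In the rescue against control 0 of 7 passed in limma, as did 0% of all genes, of which 1484 had an unadjusted p under 0.05. Unadjusted, 1 coronin was under 0.05 there, Coro2b. In the knockdown against control 4 of 7 were (16% of all genes), and between knockdown and rescue 2 of 7 were (6.82%). In the knockdown against the rescue 1 of 7 passed, again Coro6, where 0.0702% of all genes did (8 higher and 6 lower; 3 and 1 with columns centred on their median). Since Coro6 chose the family, nothing is read from these shares.

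With the repeat as a block, 3 of 7 passed in the knockdown against control (Coro6 higher, Coro1a and Coro2b lower), where 5.39% of all genes did. In the rescue 0 of 7 passed with the block (0.125% of all genes). Unadjusted, Coro2b and Coro7 were under 0.05 there with the block, as were 2595 of all 19938 genes. Between knockdown and rescue 1 of 7 passed with it (0.617% of all genes). The call of Coro6 between knockdown and rescue was lost without rescue replicate 1 (log2 difference 1.82, limma adjusted p = 0.349) and without rescue replicate 2 (1.99, adjusted p = 0.392), where the lone rescue column is taken to vary like the knockdown columns. Both of its calls were lost when every probe set was tested.

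By position alone, Coro1a and Coro6 had both knockdown columns on the same side of both rescue columns, 2 of 7, where 31.6% of all genes did. The family median was -0.29 and 0.05 in the knockdown, against -0.24 and -0.06 in the rescue, beside medians of -0.02 and 0.02, and -0.01 and -0.01, over all genes.

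The genes whose 4 values lay nearest to those of Coro6, by Euclidean distance on the log2 scale over 4 columns, were Vamp1 (distance 0.69), Vwa5b2 (0.82), Syt2 (0.85), Scn4b (0.86), Flt3 (0.89) and Peg10 (0.92). Vamp1, a vesicle SNARE, had knockdown values of 1.38 and 1.61 and rescue values of 0.07 and 0.04. Syt2, a fast calcium sensor of vesicle release, was at 2.41 and 2.57, and -0.25 and -0.17. Flt3, a receptor tyrosine kinase, was at 1.21 and 1.48, and 0.00 and 0.09.

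As these genes were picked for lying near Coro6, their high knockdown values follow from the choice. In the rescue, Peg10, an imprinted gene derived from a retrotransposon, was at -0.57 and -0.13 and Vwa5b2 at -0.42 and 0.06, so both lay lower in repeat 1 than Coro6. In the knockdown, Scn4b, a sodium channel beta subunit, was at 1.21 and 2.77, and Peg10 at 1.29 and 2.61, so both differed more between the knockdown repeats than Coro6. Over the 2 knockdown columns alone, 4 of the 6 were again among the nearest, without Scn4b and Flt3, and Nefh and Maged2 took their places. For comparison, 951 genes lay within the smallest of these distances (0.69) of Coro2b and 16398 within it of Coro1b. Coro6 was chosen for values far from control, where fewer genes lie, so this contrast follows from the choice too. No p-value goes with these distances, and columns of a repeat share their control.

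**Figure D3:**
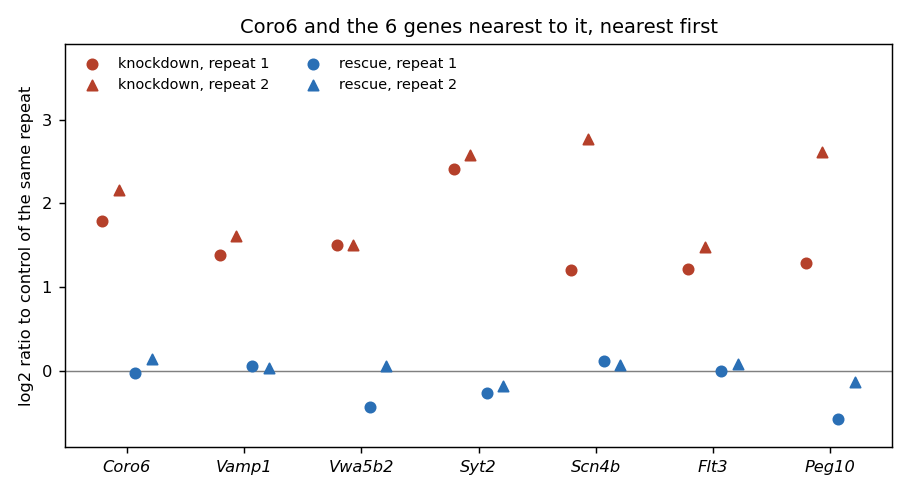
Log2 ratio to the control of the same repeat (vertical axis) for Coro6 and the 6 genes nearest to it in order of distance (horizontal axis); red marks the knockdown, blue the rescue, circles repeat 1 and triangles repeat 2. All 7 genes have both knockdown points above 1.2 and all rescue points between -0.57 and 0.15.

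The partners of the coronins in actin turnover were read through 5 lists with 85 measured genes. Of these, 0 passed the threshold in limma in any comparison, with 22 at an unadjusted p under 0.05 in the knockdown, 10 in the rescue and 10 between them. These were 25.9%, 11.8% and 11.8% of the lists, beside 16.0%, 7.44% and 6.82% of all genes. The Arp2/3 complex was the one of the 5 lists with its median farthest from control in the knockdown. Its 7 measured subunits had medians of -0.26 and -0.30 there and 0.02 and 0.00 in the rescue. Actr2, Actr3b and Arpc3 were not measured. In both knockdown columns 6 of 7 lay below control, beside 31.1% of all genes, while Arpc1b was at -0.14 and 0.68. Arpc5, a small subunit of the complex, was at -0.50 and -0.87 in the knockdown (mean -0.68, SE 0.13, limma adjusted p = 0.0837; 0.0163 with the block) and at 0.10 and -0.06 in the rescue. Arpc4, a structural subunit, was at -0.31 and -0.30 in the knockdown (adjusted p = 0.258) and at -0.15 and -0.32 in the rescue.

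The 21 activators and branch regulators of Arp2/3 had list medians of -0.01 and -0.09 in the knockdown. With the block 2 of them passed there, both lower, where 5.39% of all genes did. They were Wasf1, a WAVE protein of neurons (-0.40 and -1.06; limma adjusted p = 0.103; 0.0301 with the block), and Wipf3, a WASP-interacting protein (-0.48 and -0.68; 0.103 and 0.0231). In the rescue Wasf1 was at -0.17 and 0.02 and Wipf3 at -0.31 and -0.61.

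The cofilin pathway, through which coronins help to disassemble filaments, had medians of -0.01 and -0.09 over 16 genes in the knockdown. With the block 1 was higher (Limk1) and 2 lower (Ssh2 and Cap2), where 5.39% of all genes passed. Between knockdown and rescue, Limk1 was the 1 of the 85 listed genes that passed with the block, where 0.617% of all genes did. Limk1, the kinase that inactivates cofilin, was at 0.62 and 0.65 in the knockdown, against -0.16 and -0.58 in the rescue. Its knockdown mean was 0.64 (SE 0.14, limma adjusted p = 0.0942; 0.0247 with the block), and its difference from the rescue 1.01 (adjusted p = 0.194; 0.0415 with the block). Ssh2, a Slingshot phosphatase that activates cofilin, was at -0.27 and -1.05 in the knockdown (adjusted p = 0.143; 0.0330 with the block) and at -0.06 and -0.12 in the rescue. Cap2, a cyclase-associated protein that recycles actin monomers, was at -0.72 and -0.22 in the knockdown (adjusted p = 0.192; 0.0467 with the block) and at 0.18 and 0.39 in the rescue.

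Among 26 genes for actin and its monomer-binding, capping and bundling proteins, 2 were lower with the block, Dbn1, the spine protein drebrin (mean -0.62; limma adjusted p = 0.116; 0.0321 with the block), and Marcks, a membrane protein that binds actin and calmodulin (-0.54; 0.155 and 0.0425). In the rescue Dbn1 was low as well, at -0.48 and -0.44, and its knockdown lay -0.16 from its rescue (limma adjusted p = 1.00), while Marcks was at -0.04 and -0.08. Of 15 formins and other nucleators 1 was lower with the block, Fmnl1 (-0.75 and -0.74 in the knockdown, -0.38 and -0.62 in the rescue; limma adjusted p = 0.0618; 0.0137 with the block). The formin Daam2 was at 0.10 and 0.61 in the knockdown (adjusted p = 0.346). With the block, 9 of the 85 genes thus passed in the knockdown, 1 higher and 8 lower, where 5.39% of all genes did.

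**Figure D4:**
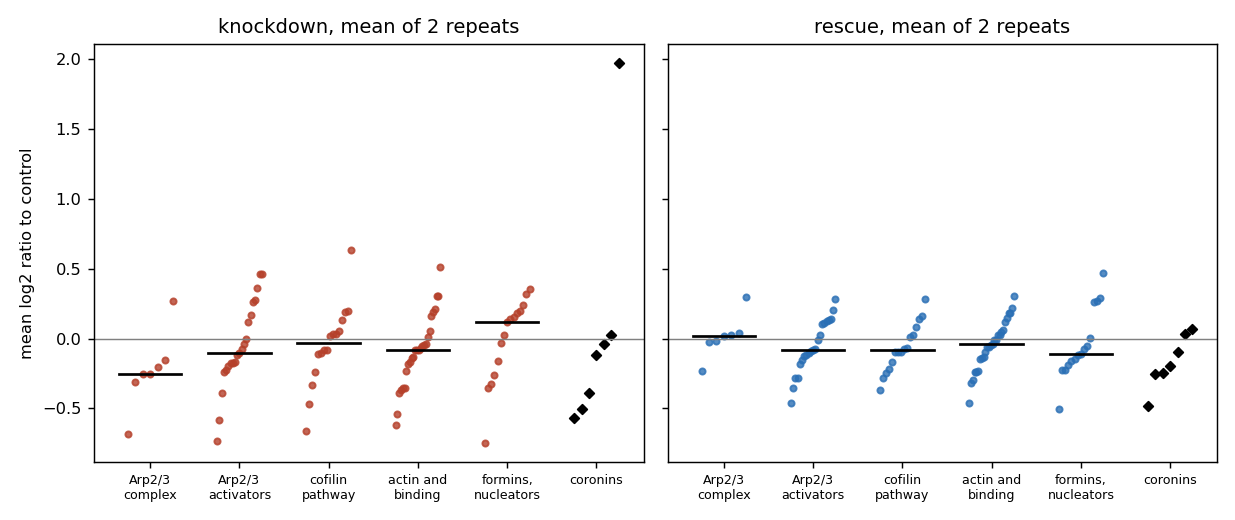
Mean log2 ratio to control over 2 repeats (vertical axis) of each gene in the 5 actin lists (circles, black lines at the list medians) and of the 7 coronins (black diamonds), in the knockdown (left) and the rescue (right). Coro6 at 1.97 lies above every gene of the actin lists in the knockdown, of which Limk1 is the highest at 0.64, and within their range in the rescue.

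Other cell types were read through 7 marker lists, and 0 of 68 markers passed the threshold in limma in any comparison (12, 13 and 13 at an unadjusted p under 0.05, or 17.6%, 19.1% and 19.1%, beside the 16.0%, 7.44% and 6.82% of all genes). With the block 5 of the 68 passed in the knockdown, 7.35%, near the 5.39% of all genes. Pan-neuronal markers had medians of -0.09 and -0.29 in the knockdown, against 0.08 and 0.01 in the rescue. Of these 10 markers, 7 lay below control in both knockdown columns, beside 31.1% of all genes. Only 1, Nefl, lay above control in both, beside 30.5% of all genes. Rbfox3, the nuclear protein NeuN, was at -0.50 and -0.79 in the knockdown, and Nefl, the light neurofilament chain, at 0.56 and 0.67. The block calls were 2 neuronal markers that were lower, Rbfox3 and Gap43, a growth cone protein (mean -0.54). All 10 astrocyte markers lay above control in both knockdown columns, as did 30.5% of all genes, with medians of 0.27 and 0.37, and of -0.08 and -0.03 in the rescue (block calls were 3 that were higher in the knockdown, Gja1, Sox9 and S100b). Fibroblast markers had medians of -0.01 and 0.41 in the knockdown, endothelial markers 0.02 and 0.32, and oligodendrocyte lineage markers 0.03 and 0.18, with rescue medians from -0.15 to 0.11 over these 3 lists. The highest astrocyte marker in either knockdown column was at 0.72, and the part of these shifts in the coronin values was not tested.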

How the data were processed

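Per the labels, each deposited value was a linear ratio of a test array to the control-virus array of its repeat, made by the authors. The sources used here do not give background correction, normalization or genome build. Control arrays were not analysed here. Of 35399 probe sets, 21789 had exactly 1 gene symbol in the platform annotation, 1621 several, and 11989 were not listed. Ratios were put on the log2 scale and averaged per symbol (19938 genes). Symbols of 21698 probe sets were matched by Entrez identifier to RefSeq names of GRCm38.p6, which changed 0.

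The test was limma 3.58.1 (R 4.3.3; lmFit, eBayes, two-sided; 2 residual and 6.11 prior degrees of freedom) with a coefficient for each group, against 0 or against each other, over all 4 columns. P-values were adjusted by Benjamini-Hochberg over all genes, threshold 0.05. A test of a ratio against 0 sees the control's spread only through the difference between repeats. The number of arrays limits the precision, and no intensities were at hand to filter dim probe sets. The fits were also run on simulated data with planted changes and noise drawn independently for each gene. The outcome is not reported here, and nothing is read from it.

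Same-numbered samples share a date in the labels, so the numbers pair them; across genes their deviations from the group means correlated at 0.305. The fit with the repeat as a block takes out that shared part, and with it the spread of the control. The coronins and all lists were chosen with earlier results of these data known. Named were all coronins, the calmodulin genes and the 6 genes nearest to Coro6 (predicted genes, receptor segments and small RNAs left out, 2819 in all). From each of 12 lists came the members past the threshold and the 2 farthest from control in the knockdown. Arpc1b, Cap2, Sox9, Gap43, Nefh and Maged2 were named after their values were seen. Lists were described by counts and medians. A planned comparison of coronin proteins was not made, and some planned items are not reported here.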

Additional observations from a re-analysis of the deposited data

Results flagged for a closer look

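Coro6 stood apart by the distance between its knockdown and rescue values: the knockdown lay 1.90 above the rescue on the log2 scale (3.75-fold; 3.50-fold in repeat 1 and 4.01-fold in repeat 2). As Coro6 chose the family, this describes the values that chose it, and no test of it supports anything. No group had enough samples for a test of outlying samples.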

How the results depend on the processing

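With 2 samples a group the counts over all genes moved with the fit. Against 61 in the knockdown against control, the replicate block gave 1074 calls, quantile normalization 94 and a test of every probe set 0 (3873 with an unadjusted p under 0.05 in limma), and leaving out a replicate gave 12 to 1272. For the rescue against control, with 0 calls, these were 25 with the block, 1 after quantile normalization and 0 to 176 without a replicate. For the knockdown against the rescue, with 14, they were 123 with the block, 5 after quantile normalization, 4 with centred columns, 0 with every probe set (1317 with an unadjusted p under 0.05) and 0 to 350 without a replicate. All of the 61 and of the 14 genes also passed with the block. Of 168 values of single coronins under these alternatives, 70 had the same log2 estimate by construction, so that only their p could move. Of these 66 kept their side of the threshold, 2 passed only there and 2 no longer passed. Of the other 98, 84 kept their direction and side, 11 that were not called changed sign, 1 passed only there and 2 no longer passed. Those that no longer passed were all Coro6: with every probe set tested (limma adjusted p = 0.329 against control and 0.924 against the rescue) and, against the rescue, without either rescue replicate. The cause was not tested. Besides the calls of Coro1a and Coro2b in the knockdown, the block changed no other call of a coronin.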
